A study of Mus musculus with 4 samples.

Results

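The genes described here are Cxcl9, Cxcl10 and Cxcl11, which encode interferon-induced chemokines, and Cxcr3, which encodes their receptor. They were chosen by gene symbol and are 4 of the 38087 genes listed. The study compared 2 libraries of wild-type (WT) mice with 2 libraries labelled Becn1-M-KO (KO), from mice with a myeloid-specific deletion of Becn1, the gene of the autophagy protein Beclin-1. All 4 came from C57BL/6 mice at postnatal week 20. Each sample carries the tissue label cervical lymph node, yet by the series' title KO stands for B cell lymphomas and WT for control nodes. Genotype and lymphoma therefore cannot be told apart, and the promoter that drove the deletion is not given in the sources used here. Whether replicates were different animals is not in the labels, and p-values then reflect the spread among these libraries alone, which may be technical. Becn1 itself had 454 and 1330 reads in the WT libraries and 984 and 1384 in the KO libraries, with a log2 fold change of −0.20 (SE 0.21, adjusted p = 0.557 in edgeR's test). In whole tissue this does not check a deletion limited to myeloid cells.

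Interferon-gamma, made mainly by activated T cells and natural killer (NK) cells, acts through its receptor and the kinases JAK1 and JAK2. Macrophages, dendritic cells, endothelium and fibroblasts answer it by releasing CXCL9, CXCL10 and CXCL11, and CXCL10 is also induced by type I interferon and NF-kB. CXCR3 is carried by activated Th1-type CD4 T cells, effector CD8 T cells and NK cells, and draws them to the source of these chemokines. In lymph nodes the system is known for positioning T cells near antigen-presenting cells. The C57BL/6 Cxcl11 gene carries a frameshift that removes the functional protein, and the authors' deposited table lists it as a polymorphic pseudogene.

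The libraries held between 15604247 and 20067004 reads. WT replicate 1 stood apart from the other 3 libraries, because reads of the 13 T cell markers summed to 8.80 CPM (counts-per-million of the library total) there, against 911 in WT replicate 2, 766 in KO replicate 1 and 751 in KO replicate 2. The 7 B cell markers summed to 5.08 CPM in WT replicate 1, against 1406, 1829 and 1756 in the others. Cd3e, a component of the T cell receptor complex, had 1 read in WT replicate 1. The lymphocyte markers that define a lymph node were thus near 0 in that library. The 7 salivary and other epithelial markers summed to 1516 and 1274 CPM in WT and to 30.0 and 40.1 CPM in KO. All 7 had negative log2 fold changes of KO against WT. In edgeR's test 4 of them, Epcam, Krt18, Krt14 and Cdh1, were called lower at an adjusted p under 0.05, beside 2.18% of all tested genes. By unadjusted p under 0.05 there were 7, and DESeq2 called 7 lower and limma-voom 3. Reads of Xist, the RNA that silences an X chromosome in female cells, numbered 2088 and 5314 in the WT libraries but 3 and 34 in the KO libraries. Sex therefore went with the groups.

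Cxcl9, Cxcl10 and Cxcl11 lie in a row on the minus strand of chromosome 5 in the mm10 genome, within 44155 bases. Cxcl9 extends from 92321331 to 92328079, Cxcl10 from 92346638 to 92348889 and Cxcl11 from 92359544 to 92365485. Cxcr3 lies on the minus strand of chromosome X from 101731535 to 101734269. In the GENCODE M21 annotation of the same build, the transcripts with the most exons held 4 exons for Cxcl9, 4 for Cxcl10, 5 for Cxcl11 and 2 for Cxcr3.

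Promoter windows of 250 bases before the transcription start were taken from RefSeq (GRCm38.p6), which held 3 of the 4 members. The windows of Cxcl9 and Cxcl10 are shown because they belong to the most abundant ligands and differ in the motifs found. They are written 5' to 3' on the minus strand, from chr5:92328080-92328329 for Cxcl9 and chr5:92348890-92349139 for Cxcl10. Capitals mark matches to the interferon-stimulated response element (ISRE, GAAANNGAAA) or the NF-kB consensus, searched on both strands.
Cxcl9: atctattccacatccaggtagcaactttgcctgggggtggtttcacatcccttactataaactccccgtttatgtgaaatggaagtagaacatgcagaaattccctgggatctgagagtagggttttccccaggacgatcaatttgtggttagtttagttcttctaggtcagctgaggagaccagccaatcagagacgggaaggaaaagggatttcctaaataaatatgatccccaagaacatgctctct
Cxcl10: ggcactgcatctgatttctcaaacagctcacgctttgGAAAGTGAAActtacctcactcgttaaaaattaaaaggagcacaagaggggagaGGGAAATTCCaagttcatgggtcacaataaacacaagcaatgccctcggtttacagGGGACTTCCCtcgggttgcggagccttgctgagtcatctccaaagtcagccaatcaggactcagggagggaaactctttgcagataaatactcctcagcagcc
The Cxcl10 window held 1 ISRE match, from 213 to 204 bases before the start, and 2 NF-kB matches, from 159 to 150 and from 103 to 94 bases before it, with no overlap among them. In the Cxcl9 window neither these letters nor those of the gamma-activated site (GAS, TTCNNNGAA) were found, and the Cxcr3 window held no match to the 3 motifs. Of 32851 promoter windows of this length, 2.98% held the ISRE letters, 7.02% the GAS letters and 3.90% the NF-kB consensus. A match of letters is a description of the window and does not show binding. The lack of a match does not show that an element is absent, since sites that differ from these letters were not sought.

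All 4 genes were far more abundant in the KO libraries, and no KO value overlapped a WT value, as the plot of CPM by library shows. The share of all tested genes separated in this way was not computed, so the separation is a description only. In the test of all 4 libraries Cxcl10 and Cxcl11 passed the threshold (adjusted p under 0.05 in edgeR's quasi-likelihood test), which is 2 of 4 members, all of which passed the count filter. Across the transcriptome 1.04% of 20695 tested genes were called higher in KO and 2.18% lower. By unadjusted p under 0.05 in the same test, 2180 of the 20695 genes were higher and 3391 lower. Counts of list genes by unadjusted p given below are to be read beside these numbers. Leaving out WT replicate 1, 4 of 4 members were called higher against a background of 20.9% of tested genes higher and 22.8% lower. Leaving out WT replicate 2, it was 4 of 4 against 32.3% higher. In each case the lone WT library is assumed to vary like the KO libraries. Among the 8 other ways of processing all 4 libraries, the background called higher was 0.971% with DESeq2 size factors, 1.04% without the 100 most abundant genes, 1.75% with no count filter, 1.15% with a stricter filter, 4.13% with DESeq2 and 1.21% with limma-voom. It was 0.0% with library totals alone and with a replicate block. Leaving out KO replicate 1 or KO replicate 2 gave 0 calls among all genes in edgeR's test, with 732 and 743 genes higher at an unadjusted p under 0.05 (0.0% called); other tools were not run on 3 libraries. In whole tissue, more cells of a type and more RNA per cell cannot be told apart.

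**Figure D1:**
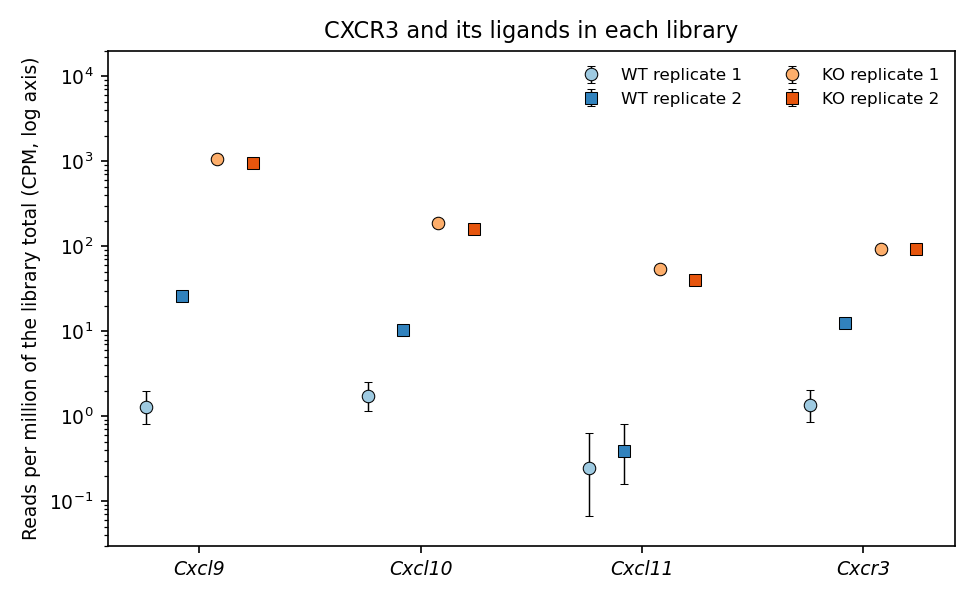
CPM of the library total (log axis) of Cxcl9, Cxcl10, Cxcl11 and Cxcr3 in each of the 4 libraries, with exact Poisson 95% intervals that cover counting error only. KO points lie above WT points for every gene. WT replicate 1 lies below WT replicate 2 for every gene, and for Cxcl11 their intervals overlap.

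Cxcl9, the ligand most dependent on interferon-gamma, had 21 reads in WT replicate 1 and 464 in WT replicate 2, against 16731 in KO replicate 1 and 19046 in KO replicate 2. As CPM of the library total these were 1.30 and 26.0 for the WT libraries, and 1072 and 949 for the KO libraries. The KO libraries lay close together and far above both WT libraries, which differed widely from each other. By number of reads Cxcl9 ranked 57 and 70 among all listed genes in the KO libraries, and 15272 and 7621 in the WT libraries. The log2 fold change was 5.98 (SE 1.28), and it missed the threshold with an adjusted p of 0.0873 in edgeR's test. Dropping WT replicate 1 lowered the fold change to 5.16, dropping WT replicate 2 raised it to 8.26, and the adjusted p over 8 alternatives with all 4 libraries ranged from 2.8e-08 (DESeq2) to 0.145 (library totals alone), with 2 of 8 past the threshold. Set against WT replicate 2 alone, the KO CPM was 38.6 times as high (95% counting interval 35.3 to 42.4).

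Cxcl10, the ligand also known as IP-10, had 28 and 184 reads in the WT libraries and 2948 and 3216 in the KO libraries. In CPM of the total these were 1.73, 10.3, 189 and 160.3, in the same order. The groups did not overlap, and the WT libraries differed less from each other than they did for Cxcl9. Cxcl10 rose in KO with a log2 fold change of 4.46 (SE 0.58, adjusted p = 0.0494 in edgeR's test), a value just inside the threshold. With WT replicate 2 as the lone control it was 3.96, and with WT replicate 1 it was 5.31. Over the same 8 alternatives 6 kept the call, with adjusted p-values from 5.1e-11 (DESeq2) to 0.0962 (library totals alone). Against WT replicate 2 alone the KO CPM was 16.8 times as high (95% counting interval 14.5 to 19.5).

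Cxcl11, the ligand with the highest affinity for CXCR3 in strains that make the protein, had 4 and 7 reads in the WT libraries and 839 and 795 in the KO libraries. In CPM these were 0.248, 0.392, 53.8 and 39.6. Both WT libraries were near the limit of detection, where a count of 0 allows up to 3 reads. Cxcl11 rose by a log2 fold change of 6.53 (SE 0.38, adjusted p = 0.037 in edgeR's test), rank 21 of 20695 tested genes and rank 11 of the called rises by size. It had the smallest adjusted p of the 4 members, and its WT libraries were alike, unlike those of the other members. Dropping WT replicate 1 gave 6.75, dropping WT replicate 2 gave 6.20, and 6 of 8 alternatives kept the call (adjusted p from 2.7e-20 for DESeq2 to 0.0564 with a replicate block). Against WT replicate 2 alone the KO CPM was 117 times as high (95% counting interval 56.6 to 291). Reads listed for this pseudogene were thus more abundant in KO than in WT libraries, in a strain that is known not to make the functional chemokine.

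Cxcr3, the receptor gene, had 22 and 224 reads in the WT libraries and 1466 and 1845 in the KO libraries. In CPM these were 1.36, 12.5, 93.9 and 91.9. The KO libraries were alike, and WT replicate 2 lay between them and WT replicate 1. Its log2 fold change was 3.41 (SE 0.74), and with an adjusted p of 0.088 in edgeR's test it did not pass. With WT replicate 2 as the lone control it was 2.76, with WT replicate 1 it was 4.75, and 2 of 8 alternatives called it (adjusted p from 9.4e-05 for DESeq2 to 0.182 with library totals alone). Cxcr3 is X-linked, and the part that the sex difference plays in its value was not tested.

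**Figure D2:**
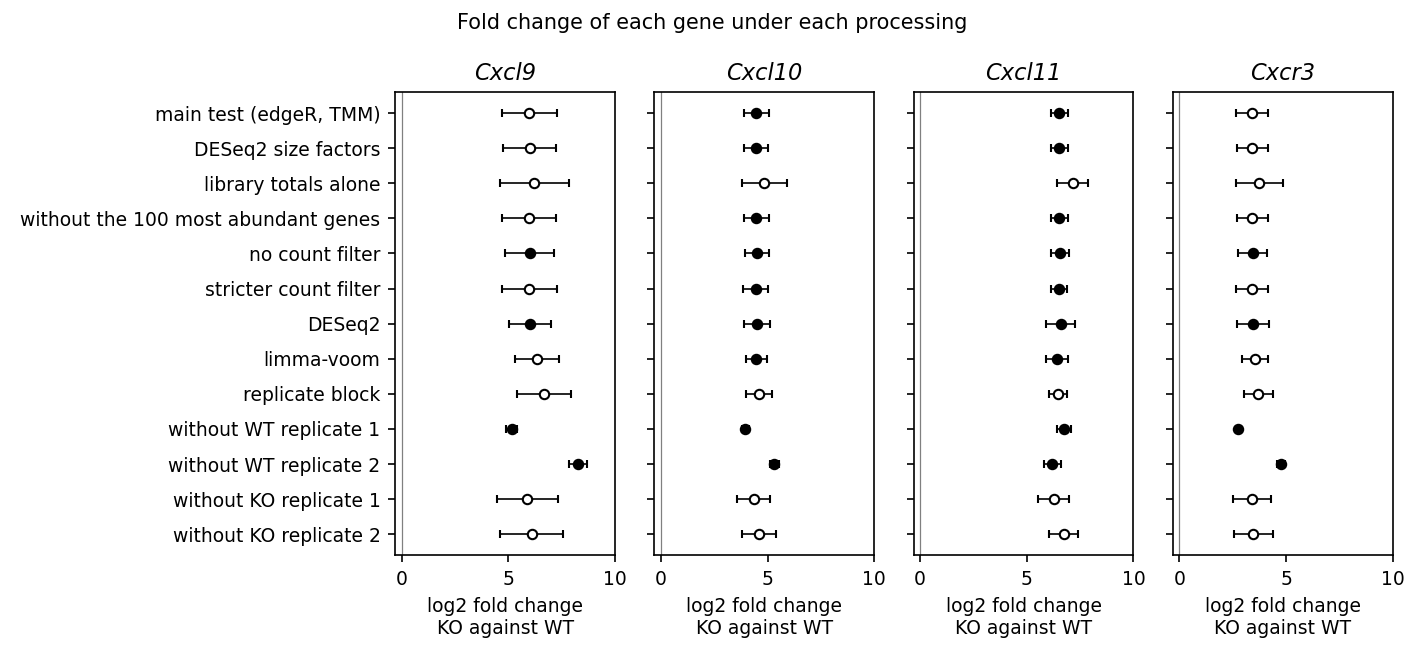
Log2 fold change of KO against WT (horizontal axis, bars are SE) for each member under the main test and 12 alternatives, with filled points past an adjusted p of 0.05. Every value is above 0, from 2.76 for Cxcr3 to 8.26 for Cxcl9, and for Cxcl9, Cxcl10 and Cxcr3 the largest shifts came from leaving out WT replicate 1 or WT replicate 2.

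The authors' deposited table of comparisons gives the 4 genes as higher in KO. Its log2 fold changes were 6.71 for Cxcl9, 4.63 for Cxcl10, 6.73 for Cxcl11 and 3.76 for Cxcr3. The unadjusted p-values in the authors' deposited table were 0.032, 0.0118, 0.00137 and 0.0397 in that order. The authors' deposited table thus puts Cxcl11 and Cxcl9 first and Cxcr3 last, the order of the fold changes computed here.

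Cxcl10 and Cxcl11 lie inside the span of Art3, a gene of the ADP-ribosyltransferase family on the opposite strand that extends from 92331827 to 92414628. Art3 had 57 and 285 reads in the WT libraries and 3894 and 4120 in the KO libraries, and by these reads it was called higher in KO (log2 fold change 4.10, SE 0.47, adjusted p = 0.047 in edgeR's test). Reads listed for Cxcl10 and Cxcl11 together made up 56.1% and 67.0% of the Art3 reads in WT and 97.3% and 97.4% in KO, though the spans of these chemokines take 9.90% of the Art3 span. Subtracting them left 25 and 94 reads in the WT libraries and 107 and 109 in the KO libraries, and the remainder was not called (log2 fold change 0.34, SE 0.37, adjusted p = 0.58 in edgeR's test), a comparison added after seeing the data.

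The columns of low-coverage bases deposited by the authors gave a second view. Taking as covered those bases not listed as low in coverage, Art3 had 2193 covered bases in KO replicate 1, and Cxcl10 and Cxcl11 had 1209 and 984, a difference of 0. In KO replicate 2 the numbers were 2222 for Art3, 1253 for Cxcl10 and 969 for Cxcl11, again with a difference of 0. In WT replicate 2 all 268 covered Art3 bases were those of Cxcl10. In each of the 4 libraries the number of covered Art3 bases equalled the sum for these chemokines, 0 in WT replicate 1. By these numbers no Art3 base outside the spans of Cxcl10 and Cxcl11 passed the authors' coverage threshold, which is not given. This does not show that no read fell there. After the subtraction 25 and 94 Art3 reads remained in the WT libraries and 107 and 109 in the KO libraries. Inside those spans, a read listed for both genes cannot be assigned to either from these counts. The authors' deposited log2 values for Art3, each relative to the gene's median over the libraries, were 0.04 and 0.59 in WT and −0.04 and −0.30 in KO, and did not follow the Art3 reads.

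**Figure D3:**
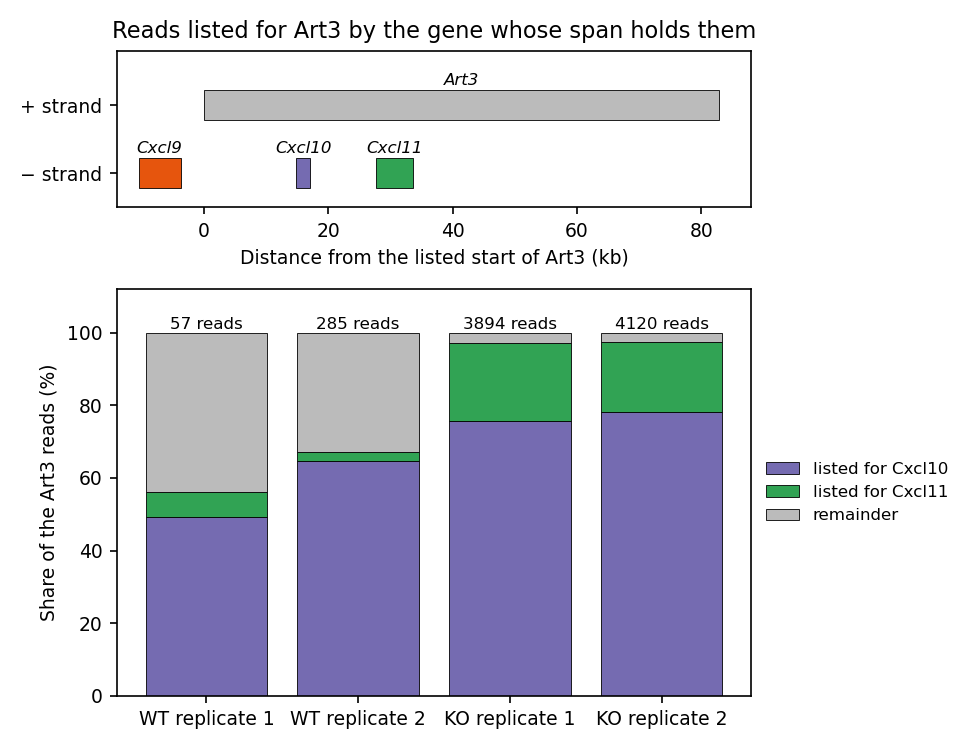
Upper panel, the listed spans of Art3 on the plus strand and of Cxcl9, Cxcl10 and Cxcl11 on the minus strand, in kb from the Art3 start; lower panel, the share (%) of Art3 reads in each library that is also listed for Cxcl10 or Cxcl11, with the number of Art3 reads above each bar. The remainder is 43.9% and 33.0% in WT and 2.75% and 2.65% in KO.

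For Cxcl9 and Cxcr3 no other listed gene overlaps the span. Gm2673, a pseudogene on the opposite strand, overlaps Cxcl11 and had at most 1 read in each library. Cxcl9 had 2660 and 2834 covered bases in KO out of 6749 listed, against a spliced transcript of 2889 bases, and Cxcr3 had 1544 and 1553 of 2735, against 1731. Cxcl10 had 1209 and 1253 of 2252, against 1094, and Cxcl11 984 and 969 of 5942, against 1581. In WT replicate 1 no base of any member was covered.

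Genes around the chemokine cluster had smaller values than its 3 members. Of 5 other tested genes within 100 kb, 0 passed the threshold in edgeR's test (adjusted p from 0.157 to 0.367), 1 had an unadjusted p under 0.05, and DESeq2 called 1 and limma-voom 0. Naaa, which encodes a lysosomal amidase, had a log2 fold change of 1.95 (SE 0.63, adjusted p = 0.157). Ppef2, a phosphatase gene, had a value of 1.26, and Sdad1 and Nup54, which encode proteins of ribosome assembly and of the nuclear pore, had values of 0.52 and 0.40. Scarb2, the gene of a lysosomal membrane protein, had a value of −0.35, which turned to 0.25 with library totals alone, a scaling that moved the median of all tested genes from 0.0101 to 0.60.

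Levels of the members could be ordered per length, as CPM of the library total for each kilobase of spliced transcript. In KO the order was Cxcl9 with 371 and 329, Cxcl10 with 173 and 146, Cxcr3 with 54.3 and 53.1, and Cxcl11 with 34.0 and 25.1, and no neighbours in that order overlapped between replicates. In WT replicate 2 Cxcl10 stood at 9.41, Cxcl9 at 8.99 and Cxcr3 at 7.24, with overlapping counting intervals from 1 to the next, and Cxcl11 stood at 0.248. In WT replicate 1 the levels were 1.59 for Cxcl10, 0.787 for Cxcr3, 0.450 for Cxcl9 and 0.157 for Cxcl11, and the counting intervals of each pair of neighbours overlapped.

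The mix of ligands differed between libraries, a measure that does not depend on library size. Cxcl9 had 0.75 reads for each Cxcl10 read in WT replicate 1 (95% counting interval 0.405 to 1.37) and 2.52 in WT replicate 2 (2.12 to 3.01). In KO it had 5.68 (5.46 to 5.90) and 5.92 (5.70 to 6.15). Cxcl10 had 7.0 reads for each Cxcl11 read in WT replicate 1 (2.45 to 27.5), 26.3 in WT replicate 2 (12.5 to 66.3), and 3.51 (3.25 to 3.80) and 4.05 (3.74 to 4.38) in KO. Relative to Cxcl10, both other ligands were thus higher in KO than in WT replicate 2, while against WT replicate 1 this held beyond counting error for Cxcl9 alone. With 2 libraries against 2, an exact two-sided permutation test cannot give a p under 0.333, so these ratios are given without a test.

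Set against Csf1r, the monocyte and macrophage list or the endothelial list, the ligands were higher in KO than in either WT library. Ratios to dendritic cell and fibroblast markers were not computed. The dendritic cell marker Itgax had a log2 fold change of 4.08, near the 4.46 of Cxcl10. It was the largest value of the 7 dendritic cell markers, whose median was 0.92. For Cxcl10 the size of the difference therefore depends on the marker chosen. For each 100 reads of Csf1r, the receptor that defines monocytes and macrophages and whose listed span overlaps Hmgxb3, Cxcl9 had 5.07 and 18.6 reads in the WT libraries and 195 and 194 in the KO libraries. Cxcl10 had 6.76 and 7.37 reads in the WT libraries and 34.3 and 32.7 in the KO libraries. Cxcl11 had 0.966 and 0.280 reads in the WT libraries and 9.77 and 8.09 in the KO libraries. The 10 monocyte and macrophage markers summed to 134 and 999 CPM in the WT libraries and to 1552 and 1543 CPM in the KO libraries, with 0 markers absent in any library, and Lyz2 alone made up 66.7% of this sum in WT replicate 2. Of these 10 markers 2 rose, Fcgr3, an IgG receptor gene (2.96), among them, and 0 fell in edgeR's test. By unadjusted p under 0.05 there were 8, DESeq2 called 8 higher and limma-voom 2. Without WT replicate 1 the list median was 1.71 and Lyz2 had a value of −2.03. With 4 libraries Lyz2 had −1.18 (adjusted p = 0.519 in edgeR's test), and without WT replicate 2 it had 1.19. Csf1r itself had a value of 2.26 (adjusted p = 0.101). Of 7 dendritic cell markers 1 rose, Itgax, which encodes CD11c (4.08), and 0 fell, with a list median of 0.92. Cd209a, a C-type lectin gene, had a value of −2.34 (adjusted p = 0.0971 in edgeR's test), and DESeq2 called 1 marker higher and 1 lower. Without WT replicate 1 the median of the dendritic cell list was 0.087. Of 6 endothelial and 6 fibroblast markers 0 passed the threshold in edgeR's test. By unadjusted p there were 2 and 5, DESeq2 called 1 endothelial marker lower and 3 fibroblast markers higher, and limma-voom 0. The sums were 66.0, 403, 322 and 257 CPM for endothelium and 186, 250.4, 877 and 726 CPM for fibroblasts, in the order WT replicate 1, WT replicate 2, KO replicate 1, KO replicate 2. The part of these cell types in the chemokine levels was not tested.

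The receptor gave another picture when set against T cell markers. For each 100 reads of the 13 T cell markers Cxcr3 had 1.38 reads in WT replicate 2 (95% counting interval 1.20 to 1.57) and 12.3 and 12.2 reads in KO, but 15.5 in WT replicate 1 (9.41 to 24.4), where these markers had 142 reads in all. WT replicate 1 thus overlapped with KO on this measure, and the groups were not separated. Of the T cell markers 0 of 13 passed the threshold in edgeR's test, 0 by unadjusted p under 0.05 and 0 with DESeq2 or limma-voom. Their median log2 fold change was 0.58, and −0.26 without WT replicate 1. Cd3e had 668 reads in WT replicate 2 and 549 and 682 in KO, and a log2 fold change of 0.73, which turned to −0.24 without WT replicate 1. For each 100 reads of the 7 B cell markers Cxcr3 had 26.8 and 0.891 reads in the WT libraries and 5.14 and 5.24 in the KO libraries. The 6 NK cell markers summed, in the same order, to 5.20, 37.0, 47.4 and 44.1 CPM, with 0 past the threshold in edgeR's test, 0 by unadjusted p and by the other tools, and 0 absent in any library.

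**Figure D4:**
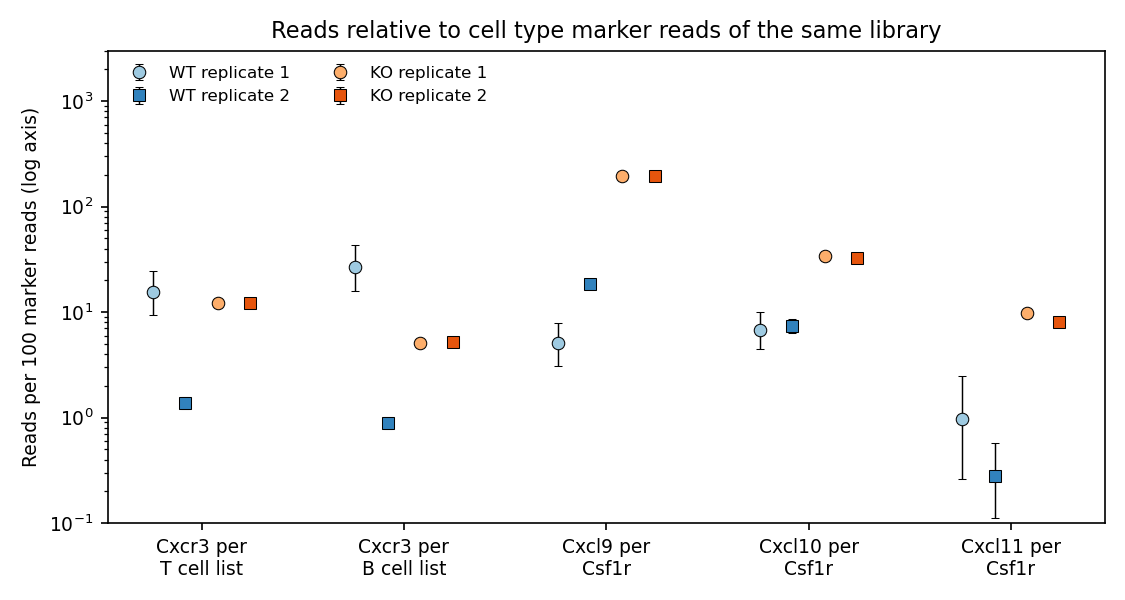
Reads of a member for each 100 reads of cell type markers in the same library (log axis), with 95% counting intervals. For the 3 ligands against Csf1r both KO points lie above both WT points, while for Cxcr3 the WT replicate 1 point lies at 15.5 and 26.8, at or above the KO points.

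Genes that induce the chemokines were described by a list of 10 cytokine genes, of which 9 were tested. Of these, 3 rose and 0 fell, with a median log2 fold change of 2.28 beside 0.0101 over all tested genes. Ifng, the gene of interferon-gamma, had 1 and 8 reads in the WT libraries and 199 and 248 in the KO libraries, and rose by 5.06 (SE 0.53, adjusted p = 0.0456 in edgeR's test). Its KO libraries were alike and its WT libraries were at or near the limit of detection. Il1b, an inflammatory cytokine gene, rose by 5.16, and Il27, which encodes a subunit of interleukin-27, by 3.28; they overlap Gm14047 and Apobr, so some of their reads may not be their own. Il12b, which encodes a subunit of interleukin-12, had a value of 4.60 (adjusted p = 0.061). Ifnb1, the interferon-beta gene, had 0 reads in each library, which allows up to 3. Without WT replicate 1 the list median was 1.58.

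Of 15 receptor and signal transduction genes 0 passed the threshold in edgeR's test, with 15 positive values and a median of 1.15. Of all tested genes 50.5% had a positive value. By unadjusted p under 0.05 there were 8, while DESeq2 called 5 higher and limma-voom 1. Irf1, an interferon-induced transcription factor gene, had a value of 2.59 (adjusted p = 0.0782) and overlaps Gm17334, and Socs3, a feedback inhibitor, had 3.28 (adjusted p = 0.082). Jak1, which overlaps Raver2, had a value of 0.35, which turned to −0.16 without WT replicate 1. Without that library the list median was 0.96.

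The list of genes known to be induced by interferon-gamma had 6 of 17 called higher and 0 lower. Its median of 2.54 came with 17 positive values, beside 50.5% positive among all tested genes. By unadjusted p under 0.05 there were 14, and DESeq2 called 16 higher and limma-voom 5. The genes called in edgeR's test were Gbp2, Iigp1, Igtp and Irgm1, which encode interferon-inducible GTPases, Nos2, the inducible nitric oxide synthase, and Fcgr1, the high-affinity IgG receptor. Their log2 fold changes were 4.59, 4.75, 3.57, 2.43, 7.38 and 2.0, and Igtp overlaps Irgm2. The value of Cxcl10 lay within this range, and those of Cxcl9 and Cxcl11 lay between Iigp1 and Nos2. Without WT replicate 1, 17 of 17 were called higher with a median of 2.44, against 20.9% of all tested genes.

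Genes of the Th1 programme, which drives Cxcr3 in T cells, had 1 of 10 called higher and 0 lower, with a median of 1.94. The called gene was Il12rb2, a chain of the interleukin-12 receptor, which rose by 2.55 (SE 0.30, adjusted p = 0.0475 in edgeR's test). Tbx21, which encodes T-bet, had 11 and 102 reads in the WT libraries and 681 and 891 in the KO libraries, and a value of 3.41 (adjusted p = 0.0774). Il12rb1, the other chain, had a value of 4.05 (adjusted p = 0.0726). Without WT replicate 1 the list median was 1.15. The cell types that carried the Cxcr3 and Tbx21 reads were not tested.

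The list of other T cell trafficking receptors held 11 genes, all chemokine receptors but S1pr1, a sphingosine-1-phosphate receptor gene, and 1 of 11 was called higher and 0 lower. Ccr2, carried by monocytes and some T cells, had a value of 2.56 (adjusted p = 0.0757). The list's median was 0.98, and without WT replicate 1 it was 0.17, with 5 called higher and 3 lower, against 20.9% and 22.8% of all tested genes. Of 10 genes of chemokine processing, atypical receptors and CXCR3 signalling, 0 passed the threshold in edgeR's test, with a median of 0.29. Of these 2 had an unadjusted p under 0.05, and DESeq2 called 1 higher and 1 lower, limma-voom 0. Ccrl1, also named Ackr4, an atypical receptor of CC chemokines, had the smallest p of the list, with a value of −1.74 (adjusted p = 0.0631). Its symbol is listed for 2 overlapping genes, so its reads are uncertain. Dpp4, a peptidase that trims the CXCR3 ligands, had a value of −0.74 (adjusted p = 0.30) and overlaps Gm13561, and Cxcr7, also named Ackr3, an atypical receptor of CXCL11, had −0.53 (adjusted p = 0.424). With library totals alone these turned to 0.051 and 0.24.

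**Figure D5:**
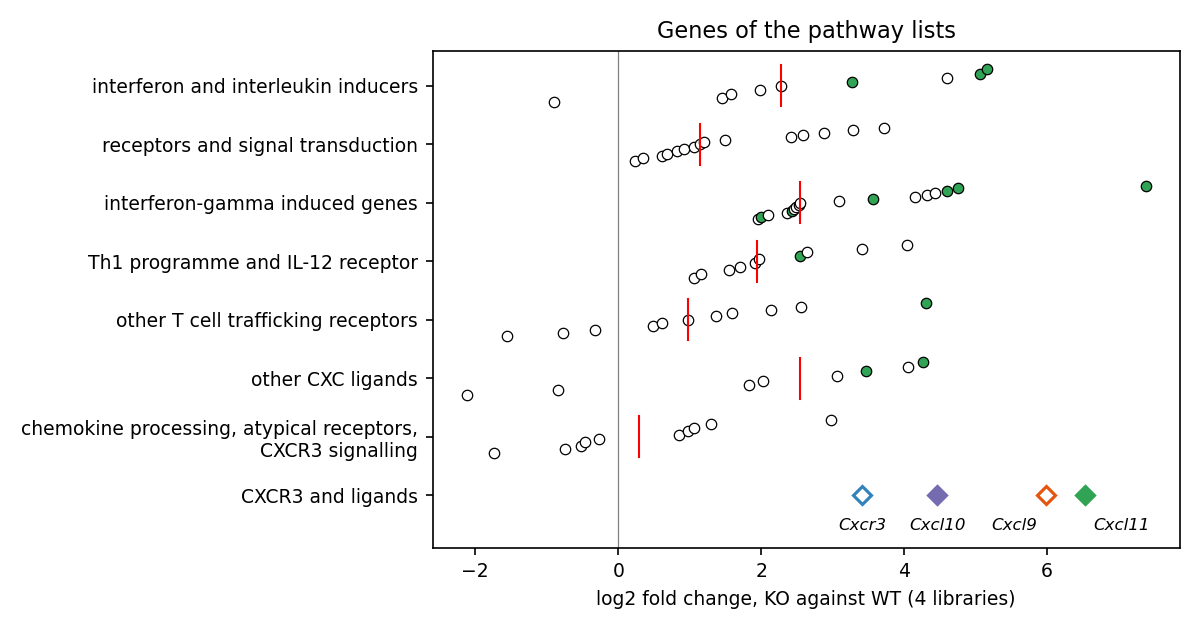
Log2 fold change of KO against WT over 4 libraries (horizontal axis) for each tested gene of 7 pathway lists and for the 4 members; green circles and filled diamonds passed an adjusted p of 0.05, and red bars are list medians. The interferon-gamma induced genes are all above 0 with a median of 2.54.

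The genes whose pattern over the 4 libraries was most like each member were found by the root mean square (RMS) difference of log2 CPM, each gene centred on its own mean, among 12782 candidates for Cxcl9 and for Cxcr3 and 12781 for Cxcl10. Likeness over 4 libraries is a description, since many genes share a low, middle and high order of WT replicate 1, WT replicate 2 and KO. None were sought for Cxcl11, with its few WT reads. For Cxcl9 the nearest were Serpina3f (RMS 0.353), Ly6i (0.477) and Clec4e (0.498). For Cxcl10 they were Gbp2 (0.0838), Lilrb4 (0.137), Iigp1 (0.16), Gp49a (0.166) and Igsf6 (0.187). For Cxcr3 they were Tbx21 (0.0678), Tlr12 (0.0856), Serpina3i (0.0861) and Fcrl5 (0.0913). Gbp2 and Iigp1 are members of the interferon-gamma induced list, and Tbx21 of the Th1 list. Between members, Cxcl10 and Cxcr3 were the most alike (0.495), and Cxcl9 and Cxcr3 the least (1.53).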

How the data were processed

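Ion Torrent libraries were made from total RNA after removal of ribosomal RNA, per the labels' protocols. The authors deposited counts of reads per gene as whole numbers, coverage (mean depth over the listed length), the number of low-coverage bases, log2 values centred on each gene's median, and a table of comparisons with log2 fold changes and p-values, per the file headers. The submitters' processing notes name mm10 and DESeq2 1.62 with no role. The sources used here do not give aligner, counter or coverage threshold.

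The test was edgeR's quasi-likelihood test (version 4.0.16, R 4.3.3) on the counts (TMM factors of 0.513 for WT replicate 1 and 1.18 to 1.30 for the others, minimum count 10 and total 15), fitted on all genes with Benjamini-Hochberg adjustment and a threshold of 0.05. Each SE came from the fold change and its F statistic. The 8 alternatives with all libraries used library totals alone, size factors of DESeq2, leaving out the 100 most abundant genes, no filter, a stricter filter (1 CPM in 2 libraries, 20 reads in all), DESeq2 1.42.0, limma-voom (limma 3.58.1), or a replicate block; each library was also left out. The steps were run on simulated counts, in which no library was made to lack lymphocyte markers as WT replicate 1 did. The simulation therefore does not check calls made with such a library. Intervals are exact at the 95% level and, like floors of 3 reads (0.149 to 0.192 CPM), cover counting error only. RMS used a prior count of 2.

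The members and lists were chosen with earlier results of these data known. Of 152 list entries 152 matched a gene. Named genes were the members, overlapping genes, neighbours within 100 kb, list genes past the threshold or with the smallest p, defining markers and the nearest patterns, not all reported; Jak1, Ifnb1, Lyz2, Cd209a, S1pr1, Dpp4, Cxcr7 and Xist were named after their values were seen. Some genes are not reported here.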

Additional observations from a re-analysis of the deposited data

How the results depend on the processing

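The direction of the 4 members was the same under the alternatives run. Cxcl10 and Cxcl11 lost their calls with library totals alone (log2 fold changes 4.86 and 7.15) and with a replicate block (4.61 and 6.46), and Cxcl9 and Cxcr3 gained calls without a filter (6.01 and 3.44) and with DESeq2 (6.03 and 3.46). With each library left out in turn the values ranged from 5.16 to 8.26 for Cxcl9, 3.96 to 5.31 for Cxcl10, 6.20 to 6.75 for Cxcl11 and 2.76 to 4.75 for Cxcr3. The main test called 216 genes higher and 451 lower; there were 542 and 1188 without a filter, 1277 and 2382 with DESeq2, 0 and 0 with library totals alone or the block, and from 0 to 6887 and from 0 to 6922 with a library left out. At these 0 counts from edgeR, genes with an unadjusted p under 0.05 numbered 1482 higher and 1509 lower (library totals), 1866 and 2734 (block), 732 and 1318 (without KO replicate 1) and 743 and 1342 (without KO replicate 2). The cause was not tested.

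Whether replicate numbers pair the samples could not be decided. Deviations of same-numbered libraries correlated at −0.108 and those of crossed libraries at 0.108. With 2 libraries per group these values are always opposite in sign. The block cut the calls to 0 and 0. A crossed pairing, added after seeing the data, gave 202 and 643 calls. For 49 other named genes 637 values were computed, of which 457 kept direction and side of the threshold, 102 lost and 72 gained a call, and 6 turned sign: Jak1 (−0.16) and Cd3e (−0.24) without WT replicate 1, Lyz2 (1.19; −2.03 without WT replicate 1) without WT replicate 2, and Dpp4 (0.051), Cxcr7 (0.24) and Scarb2 (0.25) with library totals alone. Without WT replicate 2 Jak1 (1.13) and Cd3e (7.71) were called. Depth limits Cxcl11 in WT, with 4 and 7 reads, and every ratio to T cell markers in WT replicate 1.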

Other observations

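Of 11 other CXC chemokine genes 8 were tested, of which 2 rose and 0 fell, with a median log2 fold change of 2.55. They were Cxcl5 and Cxcl1, which encode neutrophil-attracting chemokines. Cxcl5 had 1 and 3 reads in the WT libraries and 57 and 68 in the KO libraries (log2 fold change 4.27, SE 0.44, adjusted p = 0.0456 in edgeR's test). Cxcl1 had 5 and 7 reads in the WT libraries and 94 and 132 in the KO libraries (3.46, SE 0.45, adjusted p = 0.0494 in edgeR's test). Both calls were lost with library totals alone and with a replicate block, and that of Cxcl1 also with DESeq2 size factors (adjusted p = 0.0521 in edgeR's test). Cxcl16, the ligand of CXCR6, had a value of 2.03 (adjusted p = 0.0648) and overlaps Zmynd15. Cxcl16 had 2445 and 2886 reads in the KO libraries. Ccbp2, also named Ackr2, an atypical receptor that takes up inflammatory CC chemokines, had 5 and 96 reads in the WT libraries and 462 and 523 in the KO libraries (2.98, adjusted p = 0.147).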
